A study of Homo sapiens with 12 samples.

Results

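The genes described here encode 10 proteins that detect foreign or misplaced nucleic acid in the cytosol or in endosomes, or that pass the signal on directly: RIGI, IFIH1, DHX58, TRIM25, MAVS, TLR3, CGAS, STING1, ZBP1 and AIM2. They were taken by name, as 10 of the 39099 genes to which the deposited transcript rows could be summed. Of the 10, 9 passed the filter on low values, a level of 1 TPM (the transcript's share of all transcripts, scaled so that a library sums to 1000000) or more in at least 2 libraries, as did 14767 of all genes. AIM2 did not pass. ZBP1 passed through the 2 AsPC-1 mock libraries alone, so a test of ZBP1 against those libraries was bound to lean towards a fall.

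RNA was sequenced from AsPC-1 and PANC-1, established human cell lines grown from pancreatic cancer. Each line came as a mock control, as cells overexpressing TAp63 and as cells overexpressing deltaNp63, with 2 samples in each of the 6 groups that the labels call biological replicates. TAp63 and deltaNp63 are the products of the upstream and of the internal promoter of TP63, a transcription factor gene. The vector, the promoter that drove the constructs, the time after delivery and the number of clones are not given in the sources used here, nor is it stated whether replicates were separate cultures. P-values therefore measure the spread between these samples, which may be technical.

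RIG-I-like receptors (RIGI, IFIH1 and DHX58) bind viral or misplaced RNA in the cytosol. Those of RIGI and IFIH1 engage the mitochondrial adaptor MAVS. CGAS binds DNA in the cytosol and makes a cyclic dinucleotide that activates STING1, whereas TLR3 reads double-stranded RNA inside endosomes. These routes lead to the kinase TBK1 and to the transcription factors IRF3 and IRF7, which switch on type I and type III interferon genes, and several sensor genes are themselves induced by interferon, also in epithelial cells.

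In AsPC-1 cells, RIGI and DHX58 were lower with TAp63 than with mock, as were 0.609% of all genes tested. With deltaNp63, RIGI, IFIH1, DHX58, TLR3, CGAS and STING1 were lower, as were 6.51% of all genes tested. Of these calls with deltaNp63, those of RIGI and DHX58 alone passed in each of the 12 fits that left out 1 library. The call of DHX58 with TAp63 was lost in most of those fits. Fits on the AsPC-1 libraries alone called no sensor gene with either construct. RIGI fell 2.11-fold with TAp63 and 2.52-fold with deltaNp63. In PANC-1 cells no sensor gene passed the test with either construct. Few genes of any kind passed there, 0.00677% of all genes tested with TAp63 and 0.0406% with deltaNp63. The response to deltaNp63 differed between the lines, by a test of that difference, for RIGI, IFIH1 and DHX58, against 0.582% of all genes. The values of IFIH1 cover the gene in part. In 9 alternatives other than leaving out 1 library, this call passed 8 times for RIGI, 4 times for IFIH1 and 3 times for DHX58. TRIM25 and MAVS passed the test in no comparison of a construct with mock.

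TP63 itself separated the groups. It lay between 0.817 and 1.10 TPM in AsPC-1 mock and between 0.0245 and 0.119 TPM in PANC-1 mock. With a construct it lay between 102 and 350 TPM in AsPC-1 and between 324 and 1190 TPM in PANC-1, and in each line both deltaNp63 libraries lay above both TAp63 libraries (limma adjusted p = 0.6156 in AsPC-1 and 0.2128 in PANC-1). Isoform and TP63 level cannot be told apart. Replicates of a group correlated over the tested genes at Pearson r between 0.987 and 0.9939, lowest in AsPC-1 deltaNp63. The summed level of 5 epithelial markers was 7130 TPM in 1 AsPC-1 deltaNp63 library and 9540 to 10600 TPM in the other 5 AsPC-1 libraries. It was 3480 to 3850 TPM in PANC-1. Keratins make up most of this sum. In the library at 7130 TPM (replicate 1), KRT8 (2030 TPM), KRT18 (1680 TPM) and KRT19 (1910 TPM) were low. EPCAM (1380 TPM) and CDH1 (123 TPM) were not low there. In PANC-1, EPCAM reached at most 49.5 TPM and CDH1 at most 3.74 TPM, against at least 1260 and 81.8 TPM in AsPC-1. Summed levels of 9 immune markers reached at most 2.03 TPM in any library. Those of 2 endothelial markers reached at most 0.278 TPM. A fibroblast list of 5 genes summed to at most 1.61 TPM in AsPC-1 and to 81.8 to 112 TPM in PANC-1, where nearly all of it was COL1A1. The part of these marker levels in the results was not tested.

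In mock cells TRIM25 and RIGI were the most abundant of the sensor transcripts on the TPM scale, which accounts for transcript length. In AsPC-1 mock TRIM25 stood at 187 ± 27.8 TPM (SD, n = 2) and RIGI at 67.5 ± 5.81 TPM. MAVS followed with 26.1 ± 1.45 TPM, DHX58 with 22.7 ± 0.560 TPM and STING1 with 21.9 ± 2.83 TPM. The libraries of DHX58 and STING1 overlapped. IFIH1 at 9.31 ± 1.26 TPM and CGAS at 9.07 ± 1.73 TPM overlapped as well, and TLR3 (3.51 ± 0.992 TPM), ZBP1 (1.16 ± 0.222 TPM) and AIM2 (0.213 ± 0.0548 TPM) were lowest.

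PANC-1 mock cells had another order. RIGI stood at 160 ± 9.67 TPM and TRIM25 at 151 ± 2.33 TPM, a difference smaller than the SD of RIGI. CGAS came next at 31.5 ± 0.606 TPM, above DHX58 (26.8 ± 0.789 TPM), STING1 (23.0 ± 1.48 TPM) and MAVS (19.0 ± 0.781 TPM). IFIH1 (4.91 ± 0.442 TPM), TLR3 (1.26 ± 0.389 TPM), ZBP1 (0.347 ± 0.128 TPM) and AIM2 (0.0796 ± 0.0743 TPM) closed the order. The place of IFIH1 in both orders rests on a part of its transcripts, as described with the gene. That of TRIM25 rests on a sum over several transcripts. In PANC-1 mock the canonical transcript of TRIM25 was at 86.7 and 87.4 TPM, against 167 and 153 TPM for that of RIGI.

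Between the mock groups, 6 of the 9 tested genes passed the test, in a comparison in which 72.5% of all genes did. RIGI was 2.35-fold higher in PANC-1 on the log2(TPM + 1) scale (log2 difference 1.23, SE 0.13, limma adjusted p = 9.442e-06). CGAS was 3.25-fold higher (1.70, SE 0.12, limma adjusted p = 6.485e-07). These 2 genes were the ones called higher, as were 44.6% of all genes. MAVS (log2 difference -0.44), TLR3 (-0.99), ZBP1 (-0.68) and the IFIH1 rows (-0.80) were lower in PANC-1, with limma adjusted p between 0.001183 and 0.01387. DHX58, STING1 and TRIM25 did not pass. TRIM25 lay near the threshold (limma adjusted p = 0.05132) and passed it under quantile normalization and under median centring. The call of MAVS was lost without AsPC-1 mock replicate 2 and without PANC-1 mock replicate 1. That of ZBP1, which entered the test through AsPC-1 mock, was lost without AsPC-1 mock replicate 1 and without PANC-1 mock replicate 1.

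**Figure D1:**
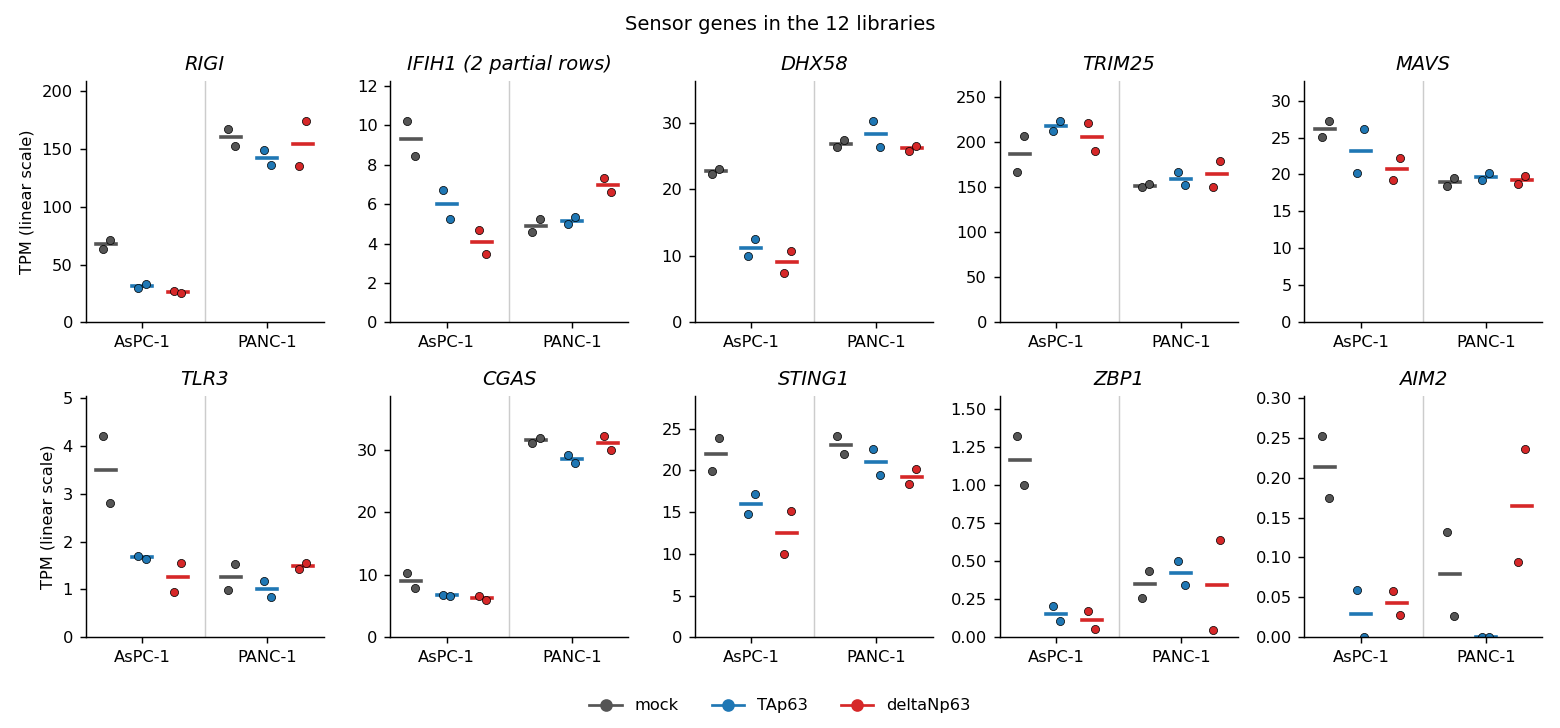
TPM (linear axis from 0, scaled for each gene) of the 10 sensor genes in the 12 libraries, grouped by cell line and construct. Points are libraries and bars the means of 2. RIGI and DHX58 in AsPC-1 fall apart into mock and construct libraries, whereas in PANC-1 the construct libraries of DHX58 lie at or around the mock level of 26.3 and 27.4 TPM.

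RIGI (ENSG00000107201, GENCODE v44 on hg38, chr9:32455302-32526208, minus strand) encodes RIG-I, which binds RNA with a 5′ triphosphate. Its sum rested almost wholly on the canonical coding transcript, which held 99.1% to 100% of it in every library. Mock AsPC-1 libraries had 63.4 and 71.6 TPM, TAp63 libraries 29.7 and 33.2 TPM, and deltaNp63 libraries 26.8 and 25.5 TPM. Both mock libraries lay above all 4 construct libraries, and both TAp63 libraries lay above both deltaNp63 libraries. The log2 change was -1.08 (SE 0.13, limma adjusted p = 0.003763) with TAp63 and -1.33 (SE 0.13, limma adjusted p = 0.00046) with deltaNp63. In bulk RNA, fewer cells with a transcript and less of it per cell cannot be told apart.

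In PANC-1, RIGI was at 167 and 153 TPM in mock, 149 and 136 TPM with TAp63, and 135 and 174 TPM with deltaNp63. Both TAp63 libraries lay below the mock libraries, whereas those with deltaNp63 lay on either side of them. Neither change passed the test: with TAp63 the log2 change was -0.17 (95% confidence interval -0.45 to 0.12) and with deltaNp63 -0.06 (-0.34 to 0.22). The interval with deltaNp63 in PANC-1 does not reach the change in AsPC-1. The difference between the lines in the effect of deltaNp63 was 1.27 (SE 0.18, limma adjusted p = 0.01129). That call was lost without AsPC-1 mock replicate 2 and without PANC-1 mock replicate 2. The same difference for TAp63 was 0.91 and did not pass (limma adjusted p = 0.1219).

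The RefSeq promoter table (GRCh38.p14, 250 bases before to 50 after each start) held 6 of the 10 genes. DHX58, CGAS, STING1 and ZBP1 were not among them. Because sensor genes that move together include known interferon targets, both strands of these windows were searched for the core of the interferon-stimulated response element, GAAANNGAAA (reverse TTTCNNTTTC), which binds IRF factors. The interferon-gamma activation site, TTCNNNGAA, was searched as well. A shorter IRF element with 1 base between the repeats, GAAANGAAA (reverse TTTCNTTTC), was added after the sequences had been seen. Of all 35116 promoters in the table, 3.57% held GAAANNGAAA, 7.66% held TTCNNNGAA and 3.12% held GAAANGAAA. A match describes letters and not a bound site. RIGI held the shorter element at bases -203 to -195 from the start, in the stretch shown here with the element in capitals because RIGI had the largest log2 changes of TPM + 1 among the tested sensor genes with both constructs (chr9:32526381-32526409, minus strand, 5′ to 3′).
RIGI: ggtgcggaggGAAACGAAActagcccgag

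IFIH1 (ENSG00000115267, chr2:162267074-162318684, minus strand) encodes MDA5, the sensor of long double-stranded RNA. Its values cover the gene in part: of 8 annotated transcripts 2 had a paired row, a coding transcript of 2 exons and 1617 bases that held 83.8% to 98.6% of the sum, and a retained intron. The canonical transcript had no paired row, so the level of the full-length mRNA was not analysed here. Rows left out because they could not be paired may hold it, and with them the level of IFIH1 and the order of the cell lines could turn. AsPC-1 mock libraries had 10.2 and 8.42 TPM, TAp63 libraries 6.72 and 5.25 TPM, and deltaNp63 libraries 4.70 and 3.46 TPM. The 3 groups did not overlap. The log2 change was -0.57 with TAp63 (limma adjusted p = 0.1656) and -1.03 with deltaNp63 (SE 0.16, limma adjusted p = 0.01223), and the latter alone passed the test.

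In PANC-1 the IFIH1 rows stood at 4.60 and 5.22 TPM in mock, at 4.99 and 5.32 TPM with TAp63 and at 7.31 and 6.60 TPM with deltaNp63. Both deltaNp63 libraries lay above all other PANC-1 libraries. The log2 difference from mock was 0.43 (95% confidence interval 0.07 to 0.79, limma adjusted p = 1), with an unadjusted p of 0.02364 in limma. The effect of deltaNp63 differed between the lines by 1.46 (SE 0.23, limma adjusted p = 0.02049). That call passed in 8 of 21 alternatives and was lost with coding transcripts alone (limma adjusted p = 0.06645).

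The promoter of IFIH1 matched the response element core 3 times, of which the 2 distal ones overlap each other. They lay at bases -159 to -150, -153 to -144 and -21 to -12 from the start. The stretches are shown because IFIH1 held more matches to this core than any other promoter searched among the sensor genes. Capitals mark the core (chr2:162318824-162318853, chr2:162318818-162318847 and chr2:162318686-162318715, minus strand).
IFIH1 distal: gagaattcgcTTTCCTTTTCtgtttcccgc
IFIH1 overlapping: tcgctttcctTTTCTGTTTCccgcggtgtc
IFIH1 at the start: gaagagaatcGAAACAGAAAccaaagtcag

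DHX58 (ENSG00000108771, chr17:42101404-42112714, minus strand) encodes LGP2, a receptor of the same family that lacks the signalling domains and modulates the others. AsPC-1 mock libraries had 22.3 and 23.1 TPM, TAp63 libraries 9.95 and 12.5 TPM, and deltaNp63 libraries 7.42 and 10.7 TPM. Mock and construct libraries did not overlap, whereas the construct groups overlapped each other. DHX58 fell 1.95-fold with TAp63 (log2 change -0.96, SE 0.16, limma adjusted p = 0.02733) and 2.39-fold with deltaNp63 (-1.26, SE 0.16, limma adjusted p = 0.003102). The call with TAp63 passed in 3 of 12 fits that each left out 1 library, and that with deltaNp63 in 12 of 12.

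PANC-1 libraries held DHX58 at 26.3 and 27.4 TPM in mock, 30.2 and 26.4 TPM with TAp63, and 25.8 and 26.5 TPM with deltaNp63. All 3 groups overlapped. Confidence intervals of the log2 change ran from -0.28 to 0.42 with TAp63 and from -0.38 to 0.32 with deltaNp63. The effect of deltaNp63 differed between the lines by 1.23 (SE 0.22, limma adjusted p = 0.04836), close to the threshold and past it in 6 of 21 alternatives. The same difference for TAp63 was 1.03 (limma adjusted p = 0.1791).

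TRIM25 (ENSG00000121060, chr17:56836387-56914080, minus strand), a ubiquitin ligase that promotes RIG-I signalling, did not follow the receptors. AsPC-1 mock libraries had 167 and 207 TPM, TAp63 libraries 212 and 223 TPM, and deltaNp63 libraries 221 and 190 TPM. The TAp63 libraries lay above both mock libraries, and the deltaNp63 libraries overlapped them. The log2 difference was 0.23 with TAp63 (95% confidence interval -0.05 to 0.50) and 0.14 with deltaNp63 (-0.13 to 0.42), and neither passed the test. PANC-1 libraries lay between 150 and 179 TPM, with overlapping groups. The canonical transcript held 44.5% to 57.9% of the sum, and 4 genes with rows of their own overlap TRIM25 (among them DGKE and C17orf67), so the assignment of its reads is uncertain. The shorter IRF element that RIGI holds was also found across the start of TRIM25 (bases -3 to 6, chr17:56914034-56914062, minus strand), shown as the counterpart in a gene that passed no test against mock.
TRIM25: tcgagctaggTTTCGTTTCctcggcggcc

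MAVS (ENSG00000088888, chr20:3846799-3876123, plus strand) is the adaptor on mitochondria that RIG-I and MDA5 share. It stood at 25.1 and 27.2 TPM in AsPC-1 mock, 20.2 and 26.2 TPM with TAp63, and 19.2 and 22.2 TPM with deltaNp63. The TAp63 libraries overlapped the mock libraries, and those with deltaNp63 lay below them. The log2 change of -0.32 with deltaNp63 (95% confidence interval -0.61 to -0.04) did not pass (limma adjusted p = 0.1272). PANC-1 libraries spanned 18.4 to 20.2 TPM, and their intervals ran from -0.23 to 0.34 with TAp63 and from -0.27 to 0.30 with deltaNp63. None of the 3 motifs was found in the MAVS window.

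TLR3 (ENSG00000164342, chr4:186068911-186088073, plus strand), the endosomal receptor for double-stranded RNA, was low, with at least 1 TPM in 9 of the 12 libraries. AsPC-1 mock libraries had 4.21 and 2.81 TPM, TAp63 libraries 1.70 and 1.64 TPM, and deltaNp63 libraries 0.956 and 1.55 TPM. The 3 groups did not overlap. The log2 change was -0.74 with TAp63 (limma adjusted p = 0.1467) and -0.998 with deltaNp63 (SE 0.20, limma adjusted p = 0.02951). The deltaNp63 call passed in 5 of 12 fits that left out 1 library. PANC-1 libraries lay between 0.840 and 1.55 TPM. There the mock libraries overlapped both construct groups, and the TAp63 libraries lay below the deltaNp63 libraries.

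The start of TLR3 carried 1 match to the response element core (bases -4 to 6) and 2 to the interferon-gamma activation site (bases -178 to -170 and -50 to -42). TLR3 was the one sensor gene of the 6 searched that held both motifs, and its stretches are shown for that reason, with the motif in capitals (chr4:186069142-186069171, chr4:186068968-186068996 and chr4:186069096-186069124, plus strand).
TLR3 response element core: caagctttacTTTCACTTTCgagagtgccg
TLR3 activation site, distal: ctgtgaccctTTCAATGAAatccaaggat
TLR3 activation site, proximal: ccctttgcccTTCTTGGAAtgcaccaaac

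CGAS (ENSG00000164430, chr6:73413515-73452297, minus strand), the cytosolic DNA sensor, stood at 10.3 and 7.85 TPM in AsPC-1 mock, 6.80 and 6.66 TPM with TAp63, and 6.55 and 5.93 TPM with deltaNp63. Every construct library lay below both mock libraries, and the mock libraries differed from each other by more than the construct libraries did. The log2 change was -0.37 with TAp63 (limma adjusted p = 0.2024) and -0.47 with deltaNp63 (SE 0.12, limma adjusted p = 0.04951). This last call sat at the threshold and passed in 0 of 12 fits that left out 1 library. Under quantile normalization the change was -0.24 (limma adjusted p = 0.2922). PANC-1 libraries held CGAS at 27.9 to 32.2 TPM, with both TAp63 libraries below both mock libraries and deltaNp63 libraries overlapping them. DDX43 overlaps CGAS on the other strand, and the use of strand in the quantification is not given in the sources used here.

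STING1 (ENSG00000184584, chr5:139475533-139482935, minus strand), the receptor for the product of CGAS, had 19.9 and 23.9 TPM in AsPC-1 mock, 14.8 and 17.2 TPM with TAp63, and 9.95 and 15.1 TPM with deltaNp63. Mock libraries lay above all construct libraries, and the construct groups overlapped. The log2 change was -0.43 with TAp63 (limma adjusted p = 0.2969) and -0.78 with deltaNp63 (SE 0.18, limma adjusted p = 0.03807). Without deltaNp63 replicate 1 the latter change was -0.50. The deltaNp63 call was lost in most fits that left out 1 library, among them fits without a library of another group. It passed in 5 of 10 other alternatives. The canonical transcript held 43.0% to 66.5% of the sum, and most of the rest were retained introns. PANC-1 libraries had 24.1 and 22.0 TPM in mock, 22.6 and 19.4 TPM with TAp63, and 18.4 and 20.1 TPM with deltaNp63. Both deltaNp63 libraries lay below mock there, with a log2 difference of -0.25 (95% confidence interval -0.64 to 0.15) that did not pass.

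ZBP1 (ENSG00000124256, chr20:57603846-57620576, minus strand) encodes a sensor of Z-form nucleic acid that can start necroptosis. It had 1.32 and 1.00 TPM in AsPC-1 mock, 0.202 and 0.104 TPM with TAp63, and 0.172 and 0.0565 TPM with deltaNp63. Mock libraries stood apart from the construct libraries, but the gene entered the test through them. The log2 change with a pseudocount of 1 was -0.90 with TAp63 (limma adjusted p = 0.108) and -0.95 with deltaNp63 (limma adjusted p = 0.03663). With a pseudocount of 0.1 the latter became -2.60 and did not pass (limma adjusted p = 0.05395). PANC-1 libraries ranged from 0.047 to 0.639 TPM, and both ends of that range came from the deltaNp63 group.

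AIM2 (ENSG00000163568, chr1:159061599-159187843, minus strand), which nucleates an inflammasome on cytosolic DNA, stayed at or below 0.252 TPM in every library and was not tested. It was listed at 0 TPM in 3 libraries, 1 of AsPC-1 TAp63 and both of PANC-1 TAp63. AsPC-1 mock libraries had 0.252 and 0.174 TPM, above the 0.0593 TPM or less of the AsPC-1 construct libraries. Depth is unknown, so no floor can be given for these levels. AIM2 shares its span with CADM3 and RAD1P2. Its promoter held 1 match to the response element core (bases -190 to -181, chr1:159076937-159076966, minus strand, capitals), shown because it lies at a gene that was all but silent in both lines.
AIM2: tctaggccacTTTCTGTTTCcaatcagtgt

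Read across the genes, AsPC-1 with TAp63 had 2 of 9 tested sensor genes called, both lower, against 0.637% of all genes tested in either direction and 0.609% lower. At an unadjusted p under 0.05 in limma there were 7 of the 9, ZBP1 among them, and 2233 of the 14767 genes. With deltaNp63, 7 of 9 were called, all lower and ZBP1 among them, against 7.14% of all genes in either direction and 6.51% lower. No fit that left out 1 library reached 7 calls. Leaving ZBP1 aside for the way it entered the test, the calls with deltaNp63 were RIGI, IFIH1, DHX58, TLR3, CGAS and STING1. Fits on the 6 AsPC-1 libraries alone, or on the groups compared alone, called 0 of them in limma with either construct (for RIGI on the 6 libraries, limma adjusted p = 0.2409 with TAp63 and 0.07363 with deltaNp63). Without AsPC-1 deltaNp63 replicate 1, the library with the lowest epithelial marker sum, the 3 genes RIGI, DHX58 and IFIH1 passed with deltaNp63, and without AsPC-1 mock replicate 1 the 2 genes RIGI and DHX58. All 7 kept their direction in every alternative run, but RIGI and DHX58 alone passed under quantile normalization, and RIGI, DHX58 and IFIH1 under median centring.

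The scaling also moved the whole comparison. With deltaNp63, 94 genes were called higher and 961 lower, and the counts became 51 higher and 148 lower under quantile normalization and 249 higher and 170 lower under median centring. With TAp63 the counts were 4 higher and 90 lower, against 11 higher and 63 lower under median centring. The median of all genes with deltaNp63 moved from -0.12 to 0.09 under median centring. RIGI, DHX58 and IFIH1 lay far below either value.

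**Figure D2:**
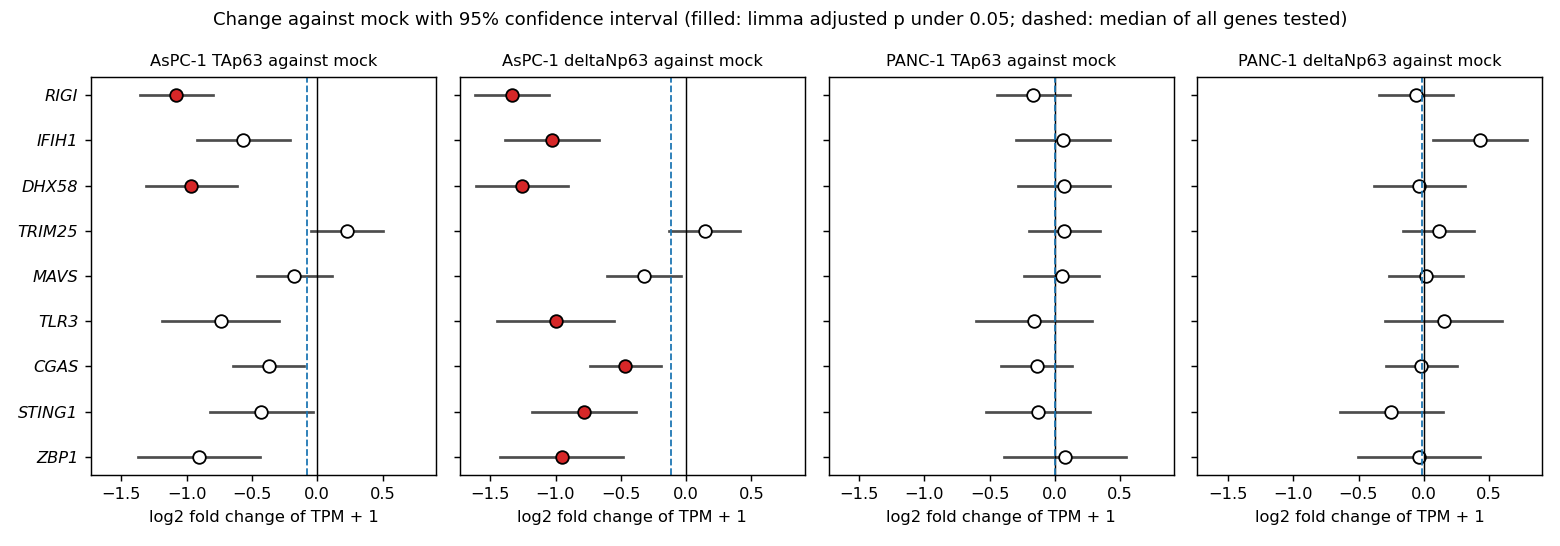
Log2 fold change of TPM + 1 against mock (horizontal axis) for the 9 tested sensor genes, 1 panel for each cell line and construct. Lines are 95% confidence intervals, filled points passed a limma adjusted p under 0.05, and the dashed line is the median of all genes tested. In AsPC-1 the changes of RIGI (-1.08 and -1.33) lie farthest to the left, whereas every interval of PANC-1 except that of IFIH1 with deltaNp63 includes 0.

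The constructs were also compared with each other in AsPC-1. Of the 9 genes 0 passed in limma, against 0.0203% of all genes, and 1 (the IFIH1 rows, log2 difference 0.46 for TAp63 minus deltaNp63) had an unadjusted p under 0.05. STING1 became called when AsPC-1 deltaNp63 replicate 2 was left out. The comparisons of each construct with mock share the mock libraries, so their values are set side by side here without a measure of likeness.

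In PANC-1, 0 of 9 sensor genes were called with TAp63, where 0.00677% of all genes were, and 0 had an unadjusted p under 0.05 in limma. With deltaNp63, 0 were called in limma, against 0.0406% of all genes, and 1, the IFIH1 rows, had an unadjusted p under 0.05. Between TAp63 and deltaNp63 in PANC-1, 0 were called in limma against 0.0271% of all genes, and 1 had an unadjusted p under 0.05, again the IFIH1 rows.

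The test of the difference between the lines compared PANC-1 with AsPC-1 directly. For TAp63, 0 of 9 sensor genes passed in limma, against 0.0745% of all genes. At an unadjusted p under 0.05 there were 4 (RIGI, DHX58, the IFIH1 rows and ZBP1, which entered the test through AsPC-1 mock) and 1540 of the 14767 genes. DHX58 became called without either AsPC-1 deltaNp63 library. For deltaNp63, 3 passed in limma (RIGI, the IFIH1 rows and DHX58), against 0.582% of all genes. For TLR3 this difference was 1.15 (limma adjusted p = 0.1584) and for STING1 0.54 (limma adjusted p = 0.3208), so that the fall of these genes in AsPC-1 was not shown to differ from PANC-1. TP63 itself rose more in PANC-1, by 2.61 on the log2 scale with deltaNp63 (limma adjusted p = 0.01004).

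Genes around the sensors were taken from 6 lists. Of 20 cofactors and regulators of RNA sensing, 2 fell with TAp63 in AsPC-1 and 11 fell with deltaNp63, against 0.609% and 6.51% of all genes, and 0 were called higher. The list medians were -0.30 and -0.49, and those of all genes -0.08 and -0.12. PNPT1, which degrades mitochondrial RNA, had 61.4 and 61.7 TPM in mock, against 35.9 and 35.7 TPM in TAp63 libraries and 31.8 and 36.5 TPM in deltaNp63 libraries. Its log2 change was -0.77 with TAp63 (limma adjusted p = 0.002714) and -0.83 with deltaNp63 (limma adjusted p = 0.0005094). DDX60, an interferon-induced helicase, fell by 0.59 with TAp63 (limma adjusted p = 0.03609), a call lost under both scalings and in all fits without 1 library except those without an AsPC-1 deltaNp63 library. With deltaNp63 it fell by 0.81 (limma adjusted p = 0.003434). TRIM14, which binds MAVS, fell by 1.21 with deltaNp63 (limma adjusted p = 0.02299), and ADAR, which edits double-stranded RNA and so limits sensing, fell by 0.90 (limma adjusted p = 0.01263). The list thus held genes that promote sensing and genes that restrain it among those that fell. The count of 2 was 1 (PNPT1) under both scalings and ran from 1 to 6 when 1 library was left out, with 6 without either AsPC-1 deltaNp63 library. The count of 11 became 6 lower under both scalings, with 1 gene called higher (PRKRA) under median centring, and between 2 and 13 lower when 1 library was left out, fewest without AsPC-1 mock replicate 2 and most without AsPC-1 deltaNp63 replicate 2.

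Of 19 tested genes around DNA sensing, 1 fell with TAp63 and 4 with deltaNp63 in AsPC-1, against the same shares of all genes (0.609% and 6.51%), with list medians of -0.16 and -0.29. SAMHD1, a nucleotide hydrolase, was at 10.4 TPM in both mock libraries, against 3.20 and 3.98 TPM in TAp63 libraries and 2.19 and 2.55 TPM in deltaNp63 libraries. Its log2 change was -1.32 with TAp63 (limma adjusted p = 0.001278) and -1.76 with deltaNp63 (limma adjusted p = 9.699e-05). IFI16, a nuclear and cytosolic DNA sensor, went from 55.3 and 63.0 TPM in mock to 31.2 and 23.7 TPM with deltaNp63 (log2 change -1.09, limma adjusted p = 0.03899). TREX1, the exonuclease that clears cytosolic DNA, fell by 1.06 (limma adjusted p = 0.04228), and TRIM56, a ubiquitin ligase that stands in both lists, by 0.71 (limma adjusted p = 0.01348). SAMHD1 and TREX1 were summed without a row of their canonical transcript, as were 1037 of the 12669 protein-coding genes tested. Under quantile normalization 2 of the 4 genes passed, and the count ran from 1 to 9 when 1 library was left out, fewest without AsPC-1 mock replicate 2 or without AsPC-1 deltaNp63 replicate 1 and most without AsPC-1 deltaNp63 replicate 2.

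Of 18 tested adaptors, kinases and transcription factors below the sensors, 0 were called with TAp63 in AsPC-1 in limma and 1 with deltaNp63, a share near the 7.14% of all genes. That gene was IRF7, the interferon-induced factor that amplifies interferon transcription, from 102 and 126 TPM in mock to 64.9 and 75.7 TPM (log2 change -0.69, limma adjusted p = 0.02545), again without a row of its canonical transcript. Its call was lost under median centring and without AsPC-1 mock replicate 2, AsPC-1 deltaNp63 replicate 1 or any mock or TAp63 library of PANC-1, and the list's count ran from 0 to 4, highest without AsPC-1 deltaNp63 replicate 2. The list median with deltaNp63 was -0.14, next to -0.12 over all genes. Among 8 tested endosomal receptors and handlers, HSP90B1, the chaperone of Toll-like receptors, fell by 0.28 with deltaNp63 (limma adjusted p = 0.04224). TLR7, TLR8 and TLR9, the other nucleic acid receptors of endosomes, were listed at no more than 0.0355 TPM in any library. Of 9 tested inflammasome and necroptosis partners, IL1B fell by 0.53 (limma adjusted p = 0.03963) and MLKL, the executor of necroptosis, by 0.48 (limma adjusted p = 0.04429) with deltaNp63. The calls of HSP90B1, IL1B and MLKL were lost under both scalings. Under median centring 1 inflammasome partner, IL18, was called higher with deltaNp63. Without 1 library, HSP90B1 passed only without an AsPC-1 TAp63 library or AsPC-1 deltaNp63 replicate 2, and IL1B and MLKL only without the latter.

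In PANC-1, limma called 0.00677% of all genes with TAp63 and 0.0406% with deltaNp63. It called 0 genes of the 6 lists with either construct, over the 20, 19, 8, 18, 9 and 6 tested genes of the lists. At an unadjusted p under 0.05 there were 4 with TAp63 and 6 with deltaNp63, against 503 and 345 of the 14767 genes. IFNL2 was among the latter (log2 difference 0.53, limma adjusted p = 0.6342). The difference between the lines with deltaNp63 was called for PNPT1, SAMHD1, IFNL1, IFNL2 and IFNL3, each positive for PANC-1 minus AsPC-1. That test called 0.582% of all genes. PNPT1 and SAMHD1 did not rise clearly in PANC-1. Their mock means there were 144 and 58.2 TPM, against 145 and 56.6 TPM with deltaNp63.

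**Figure D3:**
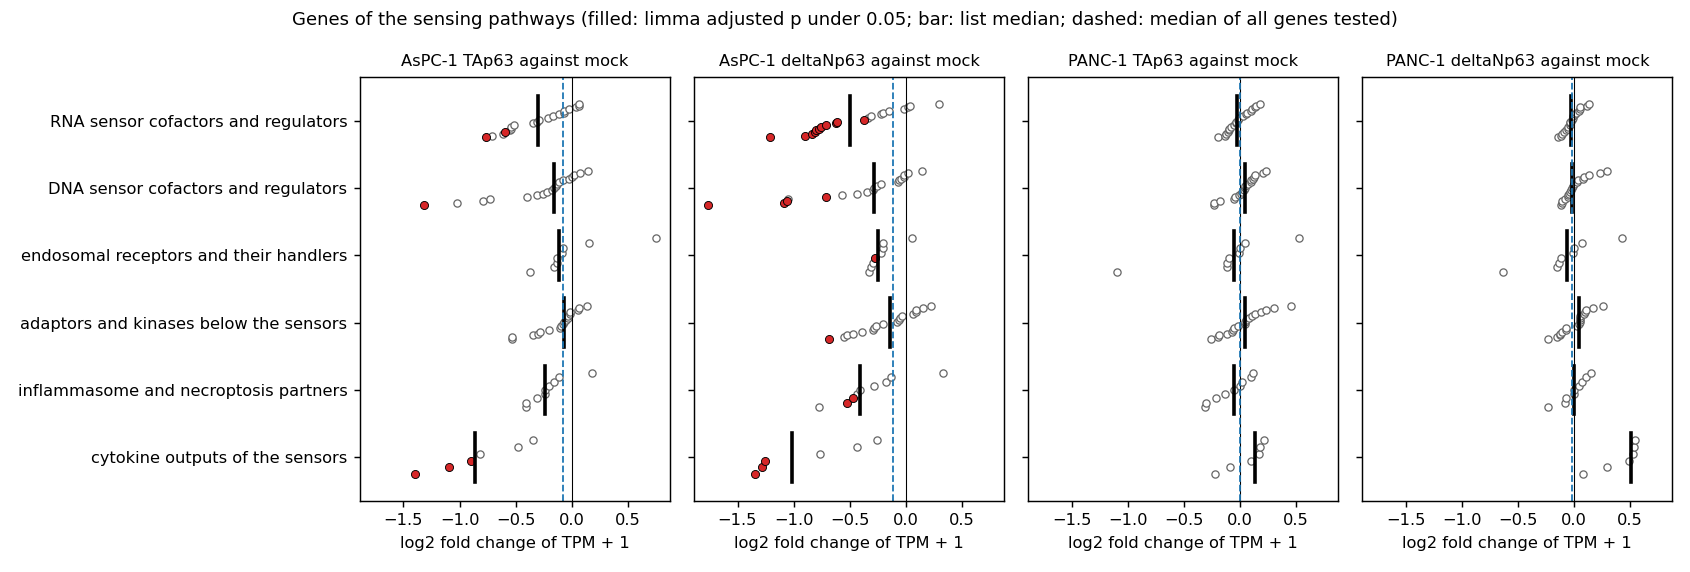
Log2 fold change of TPM + 1 against mock (horizontal axis) for the tested genes of the 6 lists around the sensors, 1 panel for each cell line and construct. Points are genes, filled where the limma adjusted p was under 0.05, black bars are list medians and dashed lines the medians of all genes tested. The cytokine outputs have the lowest medians in AsPC-1 (-0.86 and -1.01), and no point is filled in PANC-1.

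Among the cytokine genes that these sensors can switch on, IFNL1, a type III interferon gene, stood at 5.99 and 7.31 TPM in AsPC-1 mock, 2.69 and 3.53 TPM with TAp63, and 1.83 and 2.46 TPM with deltaNp63. In PANC-1 it stood at 778 and 881 TPM in mock, 973 and 899 TPM with TAp63, and 1100 and 1220 TPM with deltaNp63. The construct libraries thus lay below mock in AsPC-1 and above mock in PANC-1, where the change did not pass the test. IFNL1, IFNL2 and IFNL3 fell with both constructs in AsPC-1, by 0.90, 1.09 and 1.40 with TAp63 and by 1.28, 1.25 and 1.34 with deltaNp63 on the log2 scale (limma adjusted p between 0.0003071 and 0.02269). IFNL2 and IFNL3 are near-identical copies, so their separate values are uncertain and they are not independent of each other. The 3 calls with deltaNp63 held under both scalings and without any 1 library, and so did those of IFNL2 and IFNL3 with TAp63. That of IFNL1 with TAp63 was lost under quantile normalization and in 7 of 12 fits without 1 library, among them those without either AsPC-1 mock library.

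IFNB1, the type I interferon gene that IRF3 switches on, was at most 0.900 TPM in AsPC-1 and lay between 7.81 and 15.1 TPM in PANC-1. Both deltaNp63 libraries of PANC-1 (14.6 and 15.1 TPM) lay above the other 4, and the log2 difference from mock of 0.54 did not pass (limma adjusted p = 1). CXCL10 and CXCL11, chemokine genes induced by interferon, stayed at or below 4.11 TPM in all libraries. In AsPC-1, CXCL10 was at 1.98 and 2.26 TPM in mock and at 0.566 to 0.995 TPM with a construct. CXCL11 overlapped mock there with deltaNp63. Neither gene passed the test against mock.

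**Figure D4:**
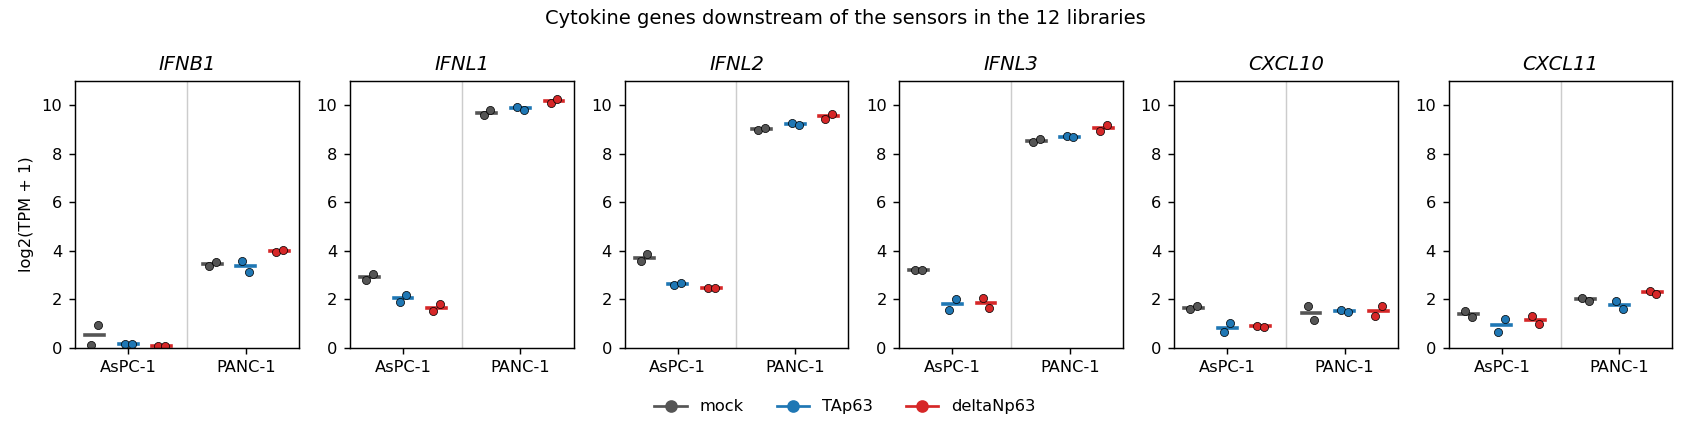
Level as log2(TPM + 1) (vertical axis, the same from 0 in each panel) of 6 cytokine genes downstream of the sensors in the 12 libraries. Points are libraries and bars group means. The 3 IFNL genes lie at 353 to 1220 TPM in PANC-1 and at 1.83 to 13.5 TPM in AsPC-1, lower with either construct than with mock in AsPC-1.

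RIGI was finally set beside all genes with a mean of at least 5 TPM in AsPC-1, by Pearson correlation of log2(TPM + 1) over the 6 AsPC-1 libraries. Among 9392 genes, leaving out the sensors, those most like RIGI included SP110 (r = 0.9968), HLA-B (0.9968), IFNL2 (0.9959) and PARP12 (0.9923). SP110, an interferon-induced nuclear protein, averaged 114 TPM in mock libraries, against 59.6 TPM in those with TAp63 and 47.8 TPM in those with deltaNp63. The bar of 5 TPM was not applied to the sensors. Leaving ZBP1 and AIM2 aside, DHX58 (0.9554) came closest to RIGI, followed by TLR3 (0.8837), IFIH1 (0.8737), CGAS (0.839), STING1 (0.8369) and MAVS (0.7443). ZBP1 (0.9526) passed the filter through the AsPC-1 mock libraries alone, which favoured its likeness to RIGI in advance. AIM2 (0.8745) did not pass the filter and stayed at or below 0.252 TPM. TRIM25 ran the other way (-0.4649). These correlations describe 6 points that share the step between mock and construct libraries, and they carry no test.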

How the data were processed

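RNA was measured in 12 libraries of 2 cell lines, and stranded mRNA libraries were made from total RNA, per the labels' protocols. The values the authors deposited are TPM of 153329 Ensembl transcripts, and each column sums to 1000000. The quantifier, the build and the annotation are not given in the sources used here. Read depth cannot be recovered from TPM, so it is unknown for every library and precision comes from the replicates alone.

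Transcripts were paired with genes through GENCODE v44 (hg38), which covered 139819 rows (91.2%) and 89.6% to 90.5% of the TPM of a library. The other 13510 rows were left out, and transcripts annotated under another identifier can be among them. TPM was summed per gene and analysed as log2(TPM + 1), so fold changes of low genes are understated. Genes that reached 1 TPM in 2 or more libraries were tested with limma 3.58.1 in R 4.3.3, with 1 mean for each of 6 groups, trended variances, two-sided p-values and Benjamini-Hochberg adjustment within a comparison at 0.05. The code was tested on simulated data. Tables, promoter searches and figures used Python 3.11.15, pandas 2.3.3 and matplotlib 3.10.9.

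Samples were grouped by their labels, with 0 value columns unused. The sensor genes, the lists and the tests were chosen with earlier results of these data known. All sensor genes were named. From each list the text names genes past the threshold against mock or in the difference between the lines, at most 4 with the largest change, and for likeness the 5 genes most correlated with RIGI, of which 1 is not reported here. Genes outside this rule (TLR7, TLR8, TLR9, IFNB1, CXCL10 and CXCL11) were named for their levels after these were seen. IKBKE, CCL5 and PECAM1 were not analysed here. Alternatives changed the filter, the pseudocount, the scaling, the trend, the libraries fitted, the transcripts summed and a replicate block.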

Additional observations from a re-analysis of the deposited data

Results flagged for a closer look

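The effect of deltaNp63 differed between the cell lines by limma's test of that difference for 3 sensor genes, against 0.582% of all genes tested. Relative to its own mock group, PANC-1 was higher than AsPC-1 by 1.27 on the log2 scale for RIGI (adjusted p = 0.01129), by 1.46 for the short IFIH1 rows (adjusted p = 0.02049) and by 1.23 for DHX58 (adjusted p = 0.04836). The AsPC-1 libraries fell with the construct, whereas those of PANC-1 overlapped mock for RIGI and DHX58 and lay above it for IFIH1. The calls of IFIH1 and DHX58 were lost in most alternatives.

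Genes around the sensors differed in the same test, which called 0.582% of all genes with deltaNp63 and 0.0745% with TAp63. For deltaNp63 the difference was 0.84 for PNPT1 (adjusted p = 0.009614), 1.72 for SAMHD1 (0.001893), 1.77 for IFNL1 (0.003556), 1.78 for IFNL2 (0.001542) and 1.87 for IFNL3 (0.005521). For TAp63 it was 1.33 for SAMHD1 and 1.30 for IFNL2, each with a limma adjusted p of 0.02855. The mock groups of the lines started from other levels of RIGI and of the IFNL genes, and the TP63 level reached was higher in PANC-1. Their part in these differences was not tested.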

How the results depend on the processing

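With 2 samples a group and unknown depth, the calls rest on a spread shared by 6 groups. Counts of sensor genes below include ZBP1 where it passed, although it entered the test through the AsPC-1 mock libraries alone. Fits on the compared groups alone called 0 sensor genes in AsPC-1 with TAp63, 0 with deltaNp63 and 0 in the deltaNp63 difference between the lines, and fits on the 6 libraries of AsPC-1 called 0 and 0. Those fits have fewer residual degrees of freedom. Without the filter on low values the counts were 1 (TAp63), 3 (deltaNp63) and 1 (difference). Quantile normalization gave 2 with deltaNp63 and 1 in the difference, and median centring 3 and 1. The cause was not tested.

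Leaving out 1 library, where the lone sample is assumed to vary like the other groups, gave 1 to 2 calls with TAp63, 2 to 6 with deltaNp63, 0 to 1 between the constructs in AsPC-1, 0 to 1 in the TAp63 difference and 0 to 5 in the deltaNp63 difference. With TAp63 the count of 2 held without AsPC-1 TAp63 replicate 2 or either AsPC-1 deltaNp63 library, and was 1 without any other. With deltaNp63 it was 2 without AsPC-1 mock replicate 1, and 3 without AsPC-1 mock replicate 2, AsPC-1 deltaNp63 replicate 1 or any mock or TAp63 library of PANC-1. The difference had 0 calls without AsPC-1 mock replicate 2 or PANC-1 mock replicate 2, 5 without AsPC-1 deltaNp63 replicate 2 and 1 without AsPC-1 mock replicate 1 or any other PANC-1 library. The TAp63 difference had 1 call without either AsPC-1 deltaNp63 library. Between the mock groups, 4 to 7 were called.

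RIGI passed in 20 of 22 alternatives with each construct in AsPC-1 and in 18 of 21 in the difference. DHX58 passed in 20 of 22 with deltaNp63 but in 10 of 22 with TAp63. IFIH1 passed in 18 of 22 with deltaNp63, TLR3 in 9 of 21, STING1 in 8 of 22, ZBP1 in 7 of 20 and CGAS in 3 of 22. In the difference IFIH1 passed in 8 of 21 and DHX58 in 6 of 21. With a replicate block the counts stayed at 2, 7 and 3, although all genes called with deltaNp63 rose from 1055 to 1633. Same-numbered deviations correlated between -0.09447 and 0.2926 across the comparisons, highest between TAp63 and deltaNp63 in AsPC-1. Whether libraries with the same replicate number shared a batch was not tested. Over all genes, the 1055 calls with deltaNp63 became 225 without the filter, 199 and 419 under the scalings, 8 on the 6 libraries and 98 to 4057 without 1 library. The 94 calls with TAp63 ranged from 42 to 412 and the 86 of the difference from 44 to 2196 without 1 library. The gene lists were run under the scalings and without single libraries after the data had been seen.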
